A study of Saccharomyces cerevisiae with 16 samples.

Results

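Amino acid biosynthesis genes were followed through sporulation of budding yeast by ribosome footprints and mRNA. The set holds 53 of the 6679 genes in the deposited table, chosen by name as the measured enzymes of 9 pathway groups, from arginine to glutamate. Libraries came from SK1, a diploid strain background used because it sporulates fast and evenly, at 3 h or 6 h after cells were moved to sporulation medium. Cells were WT or carried a deletion of the DBP1 reading frame made with Cas9 and leaving no marker, and both genotypes were treated with 100 µM cycloheximide, which stalls ribosomes, for 1 min before harvest. DBP1 encodes a DEAD-box RNA helicase related to the translation factor Ded1. Each genotype has a single strain number in the labels. Each of the 4 combinations of strain and time had 2 footprint and 2 mRNA libraries, replicates 3 and 4 in WT and 2 and 4 in the deletion. Nothing in the labels says that replicates were separate cultures, so the p-values speak only of how far these libraries spread, and that spread may be technical.

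Yeast can make all amino acids from central metabolites and ammonia. Sporulation is usually induced by nitrogen starvation, when amino acids come largely from the breakdown of existing protein. Many of these enzymes are under the transcription activator Gcn4, several of the entry enzymes are inhibited by the end product of their pathway, and a number of steps are shared between isozymes encoded by duplicated genes. A ribosome footprint is the piece of mRNA that a ribosome shields from nuclease, and footprints per mRNA are read as a measure of how heavily a message is translated.

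Values are RPKM, reads scaled to the length of the gene and the depth of the library. Depth was recovered as whole reads from the steps between RPKM values, for nearly all genes. These reads summed to between 4578407 and 6965126 in the footprint libraries and between 5644982 and 9144981 in the mRNA libraries. DBP1 itself was at 147 to 429 RPKM of footprints in the 4 WT libraries and at 0.449 to 1.12 RPKM in the 4 deletion libraries, and its mRNA was at 32.3 to 161 RPKM against 0.409 to 1.25 RPKM. Over all footprint libraries the summed RPKM of 11 middle and late sporulation markers went from 195–333 at 3 h to 40739.7–53114 at 6 h, and that of 8 early meiotic markers from 11729.5–13749.8 to 3524–5055. Among the early markers IME2 alone rose in WT, from a mean of 1605 to 1831 RPKM. The sum of 8 haploid or mating markers went from 91.5–122 to 1679–1953, with nearly all of the rise in STE18 (9.49–16.8 to 1545–1813 RPKM). WT means of STE4 and STE3 also rose, from 14.4 to 98.8 RPKM and from 6.85 to 22.9 RPKM. In WT MFA1, MFA2 and GPA1 were lower at 6 h, FUS1 moved little (2.66 to 2.86 RPKM) and STE2 was near 0 throughout. The sum of the markers of dividing cells (8 genes) went from 55.3–62.3 to 17.0–22.3, though the WT mean of HO rose from 1.07 to 3.23 RPKM. These marker values move with every comparison of the times below, and their part in those comparisons was not tested. The mRNA library labelled deletion 3 h replicate 2 went against its label: 41 of the 42 set members whose WT mRNA moved by more than 1 on the log2 scale lay nearer the WT 6 h mean than the WT 3 h mean there, against 0 of 42 in the other deletion 3 h library. That library is given apart and entered no test unless stated, so the deletion at 3 h rests on 1 mRNA library.

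At 3 h in WT the median member stood at 77.4 RPKM of footprints, where the median of all genes tested was 52.3. GDH1, the main NADP-dependent glutamate dehydrogenase, which fixes ammonia into glutamate, was highest at a mean of 714 RPKM. LYS4, homoaconitase of the lysine pathway, was lowest at 7.36 RPKM. By 6 h the median member was at 37.8 RPKM, close to the 35.3 RPKM of all genes. The highest was then GLN1, glutamine synthetase, at 830.4 RPKM, and the lowest PRO1, glutamyl kinase of the proline pathway, at 5.01 RPKM. In mRNA the median member went from 90.1 to 31.3 RPKM while the median gene went from 75.3 to 35.3 RPKM. HIS3, a histidine enzyme, was listed at 0 in all 16 libraries, and the other 52 members passed the filter on low values and were tested. LEU2 and TRP1, biosynthesis genes outside the set, were listed at or near 0 too. The reason for these values was not tested.

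In RPKM most of the pathway enzymes had fewer footprints at 6 h than at 3 h in WT and a small group had more, and relative to the median gene the set split into risers and fallers of similar number. In limma, with Benjamini-Hochberg adjustment over all genes, 9 of 52 members were higher at 6 h and 32 were lower. Among all 5312 genes tested, 20.1% were higher and 63.3% lower, so both shares of the members lie near the background. The changes ran from −2.48 for LEU1 to 3.28 for SER33. The median member moved by −0.95 on the log2(RPKM + 1) scale and the median gene by −0.96. RPKM are shares of a library, and the median gene itself moved, so each library was also rescaled by the median ratio of its genes. After rescaling, the median gene moved by −0.02, and 22 members were higher and 16 lower, against 36.1% and 32.1% of all genes. In bulk libraries, fewer cells making a transcript and less of it per cell cannot be told apart.

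Rescaling adds about the fall of the median gene to every change, so a rise in RPKM is bound to stay a rise. All 1068 genes that rose in RPKM (20.1% of those tested) therefore rose again. Among them were the 9 members ARG4, HIS1, BAT2, LYS2, LYS4, SER1, SER33, PRO2 and GLN1, for which the second scale adds nothing. Another 16 fell on both scales, as did 32.1% of all genes: ARG1, ILV2, ILV3, LEU1, LEU9, BAT1, LYS12, LYS20, ARO3, ARO4, TRP2, TRP5, HOM2, THR1, THR4 and PRO1. For the remaining members the call depended on the scaling, apart from ARG8, which was called on neither scale. There, 13 fell in RPKM and were not called after rescaling (HIS4, HIS5, HIS7, LYS21, ARO1, TRP3, HOM3, MET6, MET17, SER3, ASN1, GDH1 and GDH3). Another 10 were not called in RPKM and rose after rescaling (ARG3, ILV1, ILV5, ILV6, LYS1, LYS9, TRP4, HOM6, ASN2 and GLT1), and ARG2, LEU4 and ARO2 fell in RPKM and rose after rescaling. Leaving out WT replicate 3 or 4 ended the RPKM calls of GLN1 and LYS4 among those that rose. It also ended those of ARG2, HIS4, HIS7, LEU4, ARO1, ARO2, TRP3, HOM3, MET17, SER3 and GDH1 among those that fell. Either fit leaves a lone WT library per time, and calls over all genes were fewer as well.

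**Figure D1:**
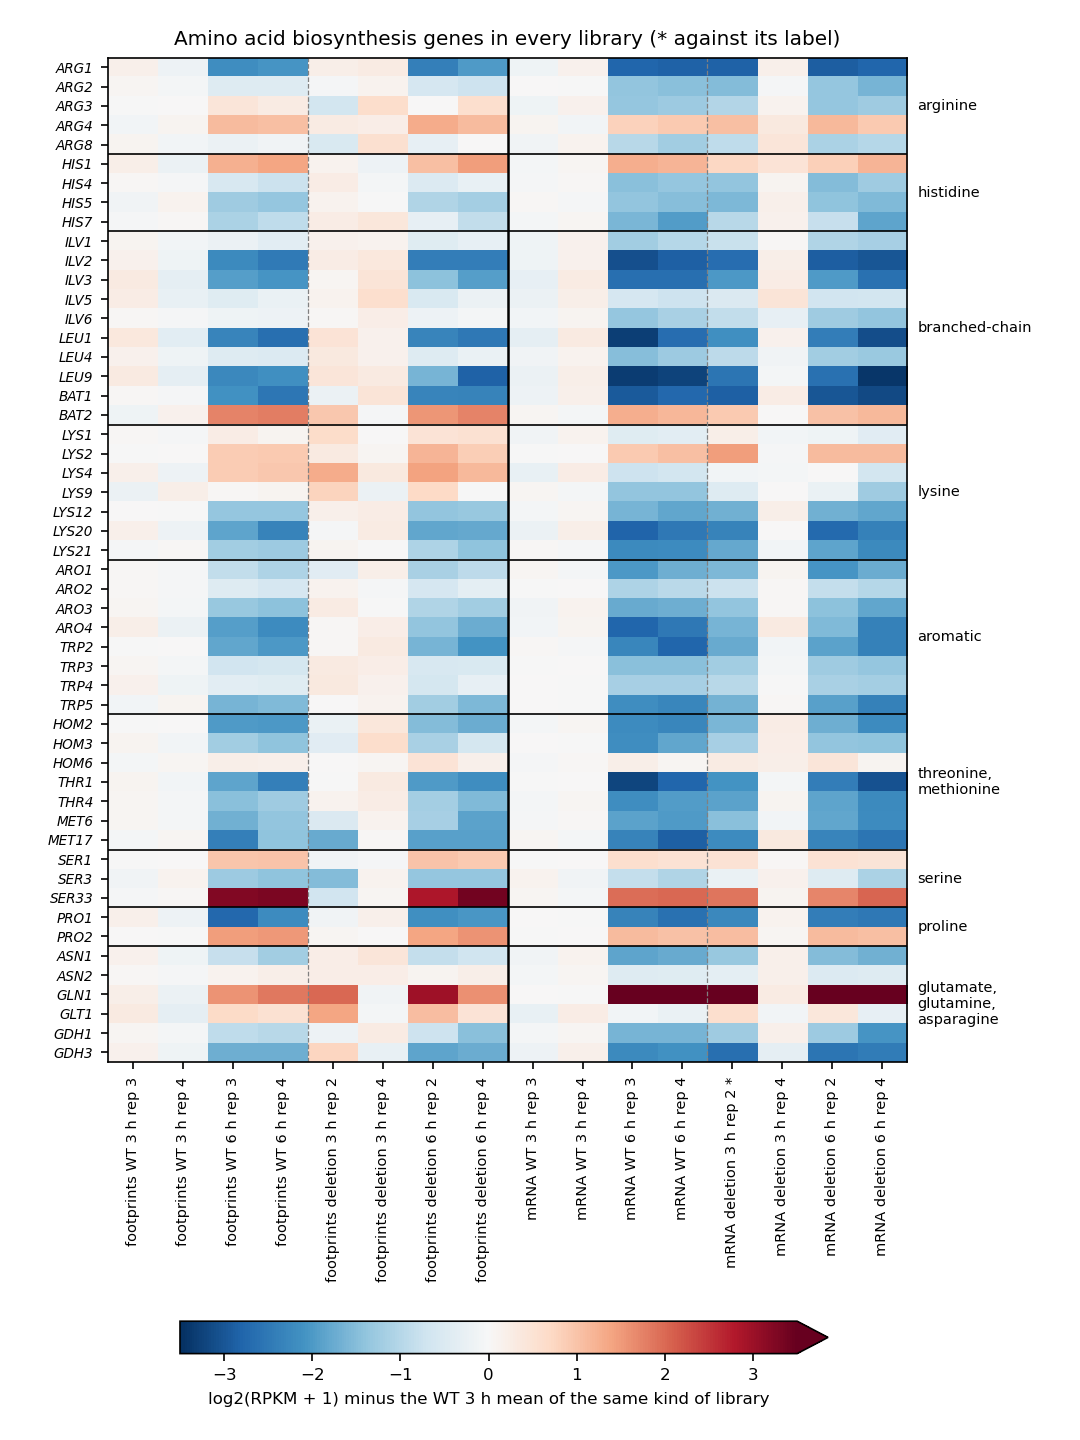
Colour gives log2(RPKM + 1) of each of 52 genes (rows, grouped by amino acid) in each of 16 libraries (columns), minus the WT 3 h mean of the same kind of library; red is higher and blue lower, and the asterisk marks the mRNA library that went against its label. SER33, BAT2, PRO2 and GLN1 are red in all 6 h libraries, and the column with the asterisk looks like the 6 h columns; RPKM are drawn, so a pale blue gene can stand above the median gene at 6 h.

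In the arginine pathway the last steps moved apart. Arginine is finished by argininosuccinate synthetase (ARG1) and argininosuccinate lyase (ARG4), which act one after the other. ARG1 footprints were 499 and 391 RPKM at 3 h and 96.9 and 104 RPKM at 6 h, a 4.42-fold fall that left no overlap between the times (log2 change −2.12 ± 0.18, adjusted p = 1.71e-05). ARG4 footprints were 82.0 and 92.6 RPKM at 3 h and 189 and 182 RPKM at 6 h, a 2.12-fold rise (1.08 ± 0.13, adjusted p = 0.000108). The mRNA went the same way for both genes, by −2.81 for ARG1 and 0.86 for ARG4. Of the 5 arginine genes, 1 rose and 2 fell in RPKM, and after rescaling 3 rose and ARG1 alone fell. Pathway counts here and below stand against 20.1% of all genes higher and 63.3% lower in RPKM, and 36.1% and 32.1% after rescaling. Nothing particular to a pathway is read from them. Lack of overlap was usual as well: in WT footprints both 6 h libraries lay above both 3 h libraries for 14 members and below them for 36. The share of all genes was not counted, and nothing is read from lack of overlap here or below.

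In the histidine pathway HIS1, the ATP phosphoribosyltransferase that opens it, rose from 44.0 and 32.8 RPKM at 3 h to 90.6 and 101 RPKM at 6 h (1.31 ± 0.20, adjusted p = 0.000416). Its mRNA rose as well, from 61.3 and 67.1 RPKM at 3 h to 156 and 149 RPKM at 6 h. The other 3 tested genes fell in RPKM, the largest fall being that of HIS5, the histidinol-phosphate aminotransferase, with 64.5 and 76.0 RPKM at 3 h and 29.1 and 26.6 RPKM at 6 h (−1.30 ± 0.15, adjusted p = 7.1e-05). None of these 3 was called after rescaling, where HIS5 stood at −0.34 and HIS4 and HIS7 at 0.21 and −0.09.

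Branched-chain synthesis held deep falls beside a large rise. Isoleucine and valine are made by a common set of enzymes, and leucine branches off from the valine precursor through isopropylmalate synthase (LEU4, LEU9) and the isomerase LEU1. LEU1 footprints were 209.9 and 126 RPKM at 3 h and 32.1 and 25.2 RPKM at 6 h, a 5.87-fold fall (−2.48 ± 0.25, adjusted p = 4.14e-05). ILV2, the catalytic subunit of acetolactate synthase, went from 132 and 108 RPKM at 3 h to 24.8 and 20.8 RPKM at 6 h (−2.34 ± 0.15, adjusted p = 5.02e-06). The regulatory subunit of the same enzyme, ILV6, had 492 and 472 RPKM at 3 h and 434 and 425 RPKM at 6 h, and its change of −0.17 ± 0.13 was not called in RPKM (adjusted p = 0.249) while after rescaling it was higher at 0.81. Of the 10 genes, BAT2 rose and 6 fell in RPKM, and 5 rose and 5 fell after rescaling.

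Of the 7 lysine genes, 2 rose and 3 fell in RPKM, and after rescaling 4 were higher and 2 lower. The homocitrate synthases that open the pathway fell in RPKM: LYS20 footprints were 46.1 and 35.8 RPKM at 3 h and 10.6 and 7.23 RPKM at 6 h (−2.09 ± 0.22, adjusted p = 5.33e-05), the largest fall among the 7. LYS2, the aminoadipate reductase of the middle of the pathway, rose with 66.7 and 68.1 RPKM at 3 h and 125 and 129 RPKM at 6 h (0.91 ± 0.16, adjusted p = 0.000708). LYS4 rose as well, from 8.32 and 6.41 RPKM at 3 h to 14.3 and 14.9 RPKM at 6 h (0.91 ± 0.31, adjusted p = 0.0229), the lowest levels of the set at 3 h. LYS4 mRNA was 23.5 and 34.2 RPKM at 3 h and 16.7 and 17.8 RPKM at 6 h and fell by 0.69 on the log2 scale, but rose after rescaling (0.64). LYS12, homoisocitrate dehydrogenase, which acts on the product of LYS4, fell on both scales, with 78.6 and 77.8 RPKM at 3 h and 30.2 and 29.7 RPKM at 6 h (−1.35 ± 0.12, adjusted p = 2.45e-05). LYS1 and LYS9, the saccharopine dehydrogenases that end the pathway, were not called in RPKM (0.17 and 0.06) and were higher after rescaling. Neither LYS4 call held when WT replicate 3 or 4 was left out.

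Among the 8 aromatic and the 7 threonine and methionine members, no gene rose in RPKM, where 20.1% of all genes rose and 63.3% fell. All 8 aromatic genes, which lead through chorismate to tryptophan, phenylalanine and tyrosine, had negative changes, and 7 were called. ARO4, a DAHP synthase that opens the pathway, went from 164 and 125 RPKM at 3 h to 37.3 and 30.4 RPKM at 6 h (−2.06 ± 0.19, adjusted p = 2.93e-05). TRP4, anthranilate phosphoribosyltransferase, moved least, with 29.8 and 24.4 RPKM at 3 h and 20.6 and 20.0 RPKM at 6 h (−0.39 ± 0.18, adjusted p = 0.0658). After rescaling, 2 aromatic genes, ARO2 and TRP4, were higher and 4 lower. Of the 7 threonine and methionine genes, which start from aspartate, 6 fell in RPKM and 3 of them also after rescaling. THR1, homoserine kinase, fell most, from 91.5 and 80.5 RPKM at 3 h to 23.1 and 15.6 RPKM at 6 h (−2.12 ± 0.21, adjusted p = 3.8e-05). HOM6, the homoserine dehydrogenase of the same branch, had 205 and 228 RPKM at 3 h and 251 and 244 RPKM at 6 h, not called in RPKM at 0.19 ± 0.14 and higher after rescaling at 1.17.

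Serine and proline genes moved far in both directions. Serine is made from a glycolytic intermediate by phosphoglycerate dehydrogenase (SER3, SER33), the aminotransferase SER1 and a phosphatase. SER33 footprints were 43.7 and 46.8 RPKM at 3 h and 439.6 and 455 RPKM at 6 h, a 9.89-fold rise (3.28 ± 0.25, adjusted p = 1.14e-05). SER1 rose from 173 and 177 RPKM at 3 h to 341 and 349.7 RPKM at 6 h (0.98 ± 0.11, adjusted p = 8.94e-05). SER33 mRNA rose as well, from 68.9 and 63.1 RPKM at 3 h to 261 and 270.5 RPKM at 6 h, which is 4.02-fold. In the proline pathway, glutamyl kinase (PRO1) and the next enzyme, glutamyl phosphate reductase (PRO2), moved in opposite directions on both scales. PRO1 footprints were 36.0 and 28.1 RPKM at 3 h and 3.85 and 6.18 RPKM at 6 h (−2.48 ± 0.24, adjusted p = 3.36e-05), a 6.39-fold fall. PRO2 footprints were 107 and 104 RPKM at 3 h and 290.1 and 304 RPKM at 6 h (1.48 ± 0.12, adjusted p = 1.57e-05), a 2.82-fold rise. The libraries of the times did not overlap for any of these 4 genes, as for most members.

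Glutamine synthetase stood out in mRNA. GLN1, which joins ammonia to glutamate, had mRNA of 275 and 271 RPKM at 3 h and 3643 and 3555 RPKM at 6 h, a 13.2-fold rise (log2 change 3.72 ± 0.17, adjusted p = 5.25e-06) and the highest level of any member at 6 h. Its footprints rose 3.26-fold, from 292 and 219 RPKM at 3 h to 758 and 903 RPKM at 6 h (1.71 ± 0.65, adjusted p = 0.0375), without overlap. This call was lost without WT replicate 3 or 4. The spread behind the SE is shared by both strains, and GLN1 had the widest gap of any member between deletion footprint replicates at each time. GDH3, the other NADP-dependent glutamate dehydrogenase, fell most of the 6 genes of glutamate, glutamine and asparagine in RPKM, with 263 and 215 RPKM at 3 h and 72.4 and 72.7 RPKM at 6 h (−1.70 ± 0.29, adjusted p = 0.000698), but was not called after rescaling. Of these 6, GLN1 rose and 3 fell in RPKM, and 3 rose after rescaling.

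The mRNA changes followed the same division. In limma 8 of 52 members were higher and 42 lower at 6 h, where 16.4% and 72.9% of 5720 genes were higher and lower, with a median member at −1.45 and a median gene at −1.38. After rescaling 15 members were higher and 23 lower, against 38.1% and 35.8% of genes. On both scales 8 members rose, which holds by construction for any that rose in RPKM, and 23 fell, against 16.4% and 35.8% of genes. The 8 were the footprint risers other than LYS4, and the 23 held all 16 genes whose footprints fell on both scales, with ARO1, ASN1, GDH3, HOM3, LYS21, MET6 and MET17. The mRNA calls of SER1, ILV5, LYS1, LYS4 and ASN2 were lost when WT replicate 3 or 4 was left out, all of them apart from ILV5 in either case. Calls over all genes were fewer then as well.

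**Figure D2:**
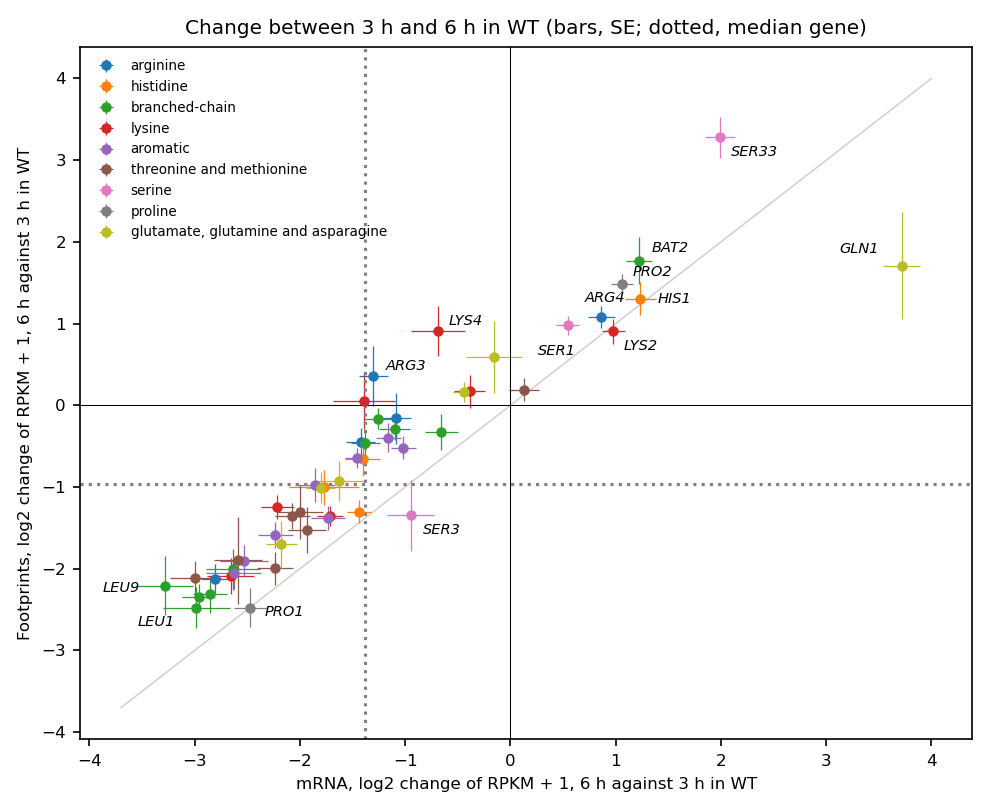
Each point is a gene, placed by its log2 change of mRNA (x) and of footprints (y) from 3 h to 6 h in WT, with SE bars, coloured by pathway; dotted lines mark the median of all genes tested (−1.38 and −0.96) and the pale line marks equal change. SER33 lies above the pale line, at 3.28 for footprints and 1.99 for mRNA, and GLN1 below it, at 1.71 and 3.72; genes between 0 and the dotted lines are lower in RPKM and higher relative to the median gene.

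Isozymes of the same step took different courses. Pairs with near-identical sequence may share reads, which limits how well they are separated. The cytosolic branched-chain aminotransferase BAT2 and its mitochondrial partner BAT1 were near equal in footprints at 3 h, with BAT2 over BAT1 at 1.04 and 1.37 at 3 h and 17.6 and 24.4 at 6 h. BAT2 footprints were 200.1 and 246 RPKM at 3 h and 748 and 772 RPKM at 6 h (1.77 ± 0.29, adjusted p = 0.000507) and BAT1 footprints 193 and 179 RPKM at 3 h and 42.4 and 31.6 RPKM at 6 h (−2.31 ± 0.23, adjusted p = 3.62e-05). The libraries of the times did not overlap for either gene, as for most members. The fall of BAT1 was also called after rescaling, as was the rise of BAT2, which rescaling could only raise. The mRNA ratio of the same pair was 2.39 and 1.69 at 3 h and 39.1 and 31.8 at 6 h.

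The phosphoglycerate dehydrogenases changed places: SER33 over SER3 in footprints was 0.320 and 0.288 at 3 h and 7.26 and 8.23 at 6 h in WT. SER3 alone had 137 and 162 RPKM at 3 h and 60.6 and 55.3 RPKM at 6 h (−1.35 ± 0.43, adjusted p = 0.0175), a call that was lost without WT replicate 3 or 4 and after rescaling, and that sits on a gene overlapping a non-coding transcript. The mRNA ratio was 0.634 and 0.693 at 3 h and 4.70 and 5.74 at 6 h, so the order of the isozymes was reversed between the times in both kinds of library. In the deletion the footprint ratio was 0.546 and 0.291 at 3 h and 5.75 and 8.21 at 6 h.

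The other 5 pairs kept their order in WT footprints. Among the isopropylmalate synthases, LEU9 over LEU4 was 0.469 and 0.370 at 3 h and 0.113 and 0.124 at 6 h, with LEU9 going from 89.7 and 57.2 RPKM at 3 h to 14.1 and 15.4 RPKM at 6 h (−2.21 ± 0.37, adjusted p = 0.000583) and LEU4 from 191 and 155 RPKM at 3 h to 124 and 124 RPKM at 6 h (−0.47 ± 0.15, adjusted p = 0.0198, lost without WT replicate 3 or 4). LYS21 over LYS20, the homocitrate synthases, was 1.96 and 2.67 at 3 h and 3.70 and 5.24 at 6 h. LYS21 had 90.3 and 95.4 RPKM at 3 h and 39.3 and 37.9 RPKM at 6 h (−1.24 ± 0.15, adjusted p = 0.000107), a call not made after rescaling. LYS21 thus held more of the footprints of this step at 6 h. ASN2 over ASN1, the asparagine synthetases, was 2.54 and 2.97 at 3 h and 5.27 and 7.62 at 6 h. ASN1 had 50.2 and 39.8 RPKM at 3 h and 25.2 and 18.7 RPKM at 6 h (−1.01 ± 0.19, adjusted p = 0.00118), and ASN2 had 127 and 118 RPKM at 3 h and 133 and 142 RPKM at 6 h (0.16 ± 0.12, adjusted p = 0.242), higher after rescaling only. GDH3 over GDH1 was 0.354 and 0.315 at 3 h and 0.187 and 0.199 at 6 h, and GDH1 had 745 and 684 RPKM at 3 h and 387 and 365 RPKM at 6 h (−0.92 ± 0.25, adjusted p = 0.00759, lost without WT replicate 3 or 4). ARO4 over ARO3, the DAHP synthases inhibited by tyrosine and by phenylalanine, was 0.808 and 0.689 at 3 h and 0.491 and 0.433 at 6 h, and ARO3 had 203 and 182 RPKM at 3 h and 76.0 and 70.3 RPKM at 6 h (−1.38 ± 0.15, adjusted p = 5.68e-05). In each of these 5 pairs the WT ratios of the times did not overlap. In the deletion the times overlapped for GDH3 over GDH1 (0.637 and 0.227 at 3 h and 0.153 and 0.271 at 6 h) and not for the other 4. Ratios within a library do not depend on its scaling.

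**Figure D3:**
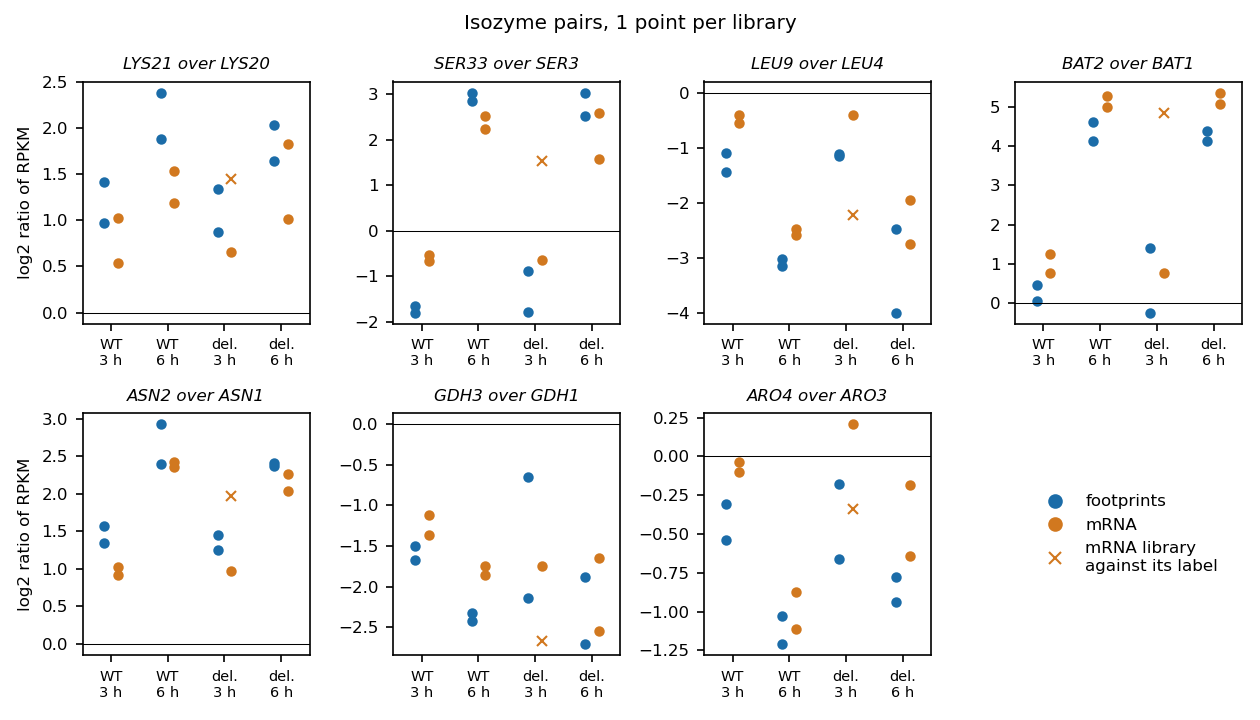
The log2 ratio of RPKM of the second to the first isozyme is drawn for 7 pairs, 1 point per library, footprints in blue and mRNA in orange, by strain and time; crosses mark the mRNA library that went against its label. SER33 over SER3 crosses 0 between the times, and BAT2 over BAT1 climbs from near 0 in footprints at 3 h to ratios of 17.6 and 24.4 at 6 h in WT.

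Footprints per mRNA rose for part of the set in RPKM. The median member had a ratio of footprint to mRNA RPKM of 0.978 and 0.791 in the WT replicates at 3 h and 1.37 and 1.30 at 6 h, where the median gene went from 0.767 and 0.718 to 1.02 and 1.03. In limma 19 of 52 members had a higher ratio at 6 h and 0 a lower one, against 30.2% and 2.48% of 5291 genes, and 25 and 1 members had an unadjusted p under 0.05. limma-voom on recovered reads called 21 and 0, with 1802 of 5291 genes called either way. After rescaling limma called 0 members in either direction (8 higher and 2 lower at an unadjusted p under 0.05), against 2.32% and 3.12% of genes. With the library that went against its label, 0 members and 41 of 5290 genes were called, with 5 members higher at an unadjusted p under 0.05. Without WT replicate 3 or 4 no member was called, and calls over all genes were few. Without deletion replicate 2 or 4 members and all genes both had more calls than in the main fit. The member counts thus moved with those of all genes.

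The largest rises called in RPKM were those of ARG3, LYS4, SER33, ILV6 and ARG2. ARG3, the ornithine carbamoyltransferase, had the lowest ratio of any member at 3 h, 0.208 and 0.170 at 3 h and 0.664 and 0.557 at 6 h (log2 change 1.66 ± 0.45, adjusted p = 0.0206). Its footprints, at 20.8 and 21.0 RPKM at 3 h and 28.6 and 25.6 RPKM at 6 h, were called higher after rescaling only, while its mRNA went from 99.9 and 124 RPKM at 3 h to 43.1 and 45.9 RPKM at 6 h. LYS4 had ratios of 0.354 and 0.188 at 3 h and 0.855 and 0.838 at 6 h (1.60 ± 0.44, adjusted p = 0.0220). For SER33 the ratios were 0.634 and 0.741 at 3 h and 1.69 and 1.68 at 6 h (1.29 ± 0.32, adjusted p = 0.0147). ILV6 went from 1.29 and 1.11 at 3 h to 2.78 and 2.34 at 6 h (1.09 ± 0.18, adjusted p = 0.00271), and ARG2, the acetylglutamate synthase that opens arginine synthesis, from 0.348 and 0.316 at 3 h to 0.639 and 0.683 at 6 h (0.98 ± 0.19, adjusted p = 0.00564). In none of these 5 genes did the libraries of the times overlap, which also held for most members of the set. The share of all genes was not counted.

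GLN1 had the largest drop of the ratio, from 1.06 and 0.806 at 3 h to 0.208 and 0.254 at 6 h. Its change of −2.01 ± 0.81 was not called (adjusted p = 0.0758), while the adjusted p was 0.000554 without deletion replicate 2 and 0.000572 without deletion replicate 4. The highest ratio at 3 h was that of MET6, the methionine synthase, at 2.62 and 2.24. The 3 h ratio of the deletion library pair that holds the apart mRNA library had a median of 2.08 over the members.

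**Figure D4:**
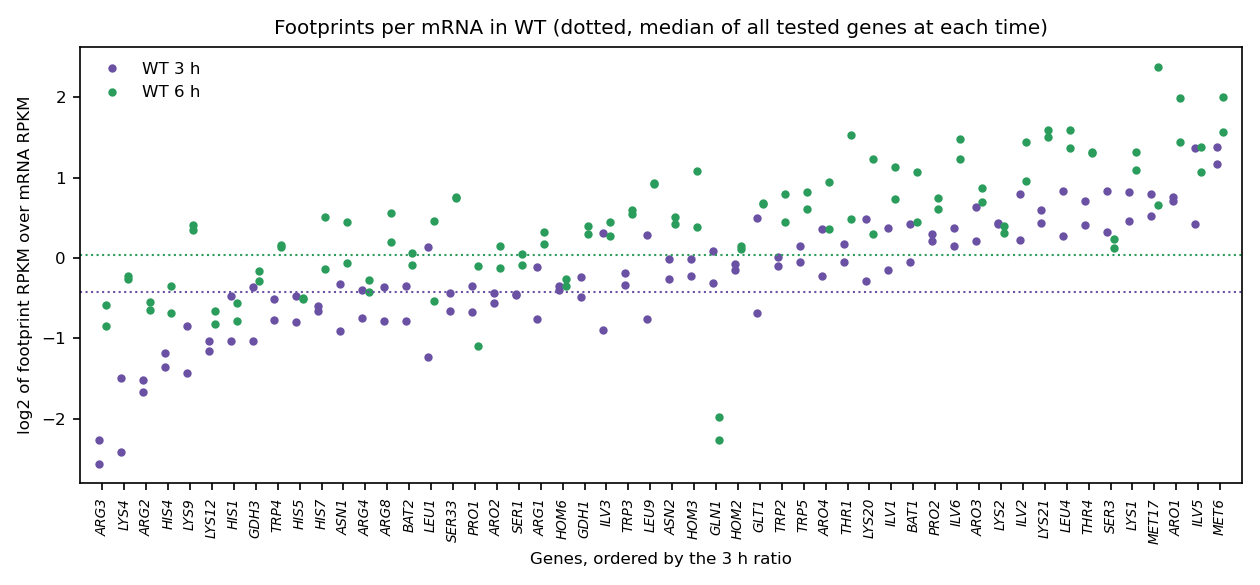
The log2 ratio of footprint to mRNA RPKM is drawn for each of 52 genes in the 4 WT pairs of libraries, purple at 3 h and green at 6 h, with dotted lines at the median of all genes tested at each time. Most green points lie above the purple ones, as the dotted lines do, and GLN1 is the gene whose green points fall far below, at 0.208 and 0.254; after rescaling no member's change was called by limma.

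GCN4, the activator of many of these genes, whose own translation is held back by short upstream reading frames in its leader, had mRNA of 2516 and 2636 RPKM at 3 h and 408 and 417 RPKM at 6 h (log2 change −2.64 ± 0.12, adjusted p = 5.25e-06). Its footprints were far fewer, 8.89 and 13.0 RPKM at 3 h and 6.01 and 1.65 RPKM at 6 h, and their change was not called (−1.45 ± 0.80, adjusted p = 0.122).

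In the DBP1 deletion most of the same genes rose and fell. Footprints of 7 members were higher and 32 lower at 6 h, against 19.3% and 65.1% of genes, and on both scales 7 rose and 16 fell, against 19.3% and 31.2% of genes. The 7 were among the 9 of WT, without LYS4 and GLN1, and 15 of the 16 that fell were shared. SER33 footprints in the deletion were 28.3 and 47.3 RPKM at 3 h and 329 and 476 RPKM at 6 h (3.40 ± 0.25, adjusted p = 1.03e-05). PRO2 footprints were 110.0 and 107 RPKM at 3 h and 277 and 313 RPKM at 6 h (1.43 ± 0.12, adjusted p = 1.94e-05). PRO1 footprints were 29.0 and 36.1 RPKM at 3 h and 6.48 and 7.05 RPKM at 6 h (−2.11 ± 0.24, adjusted p = 7.68e-05). The libraries of the times did not overlap for these genes. In deletion footprints that held for most members, with 8 higher and 36 lower at 6 h, and the share of all genes was not counted.

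BAT2 and GLN1 had replicates that differed at 3 h in the deletion. BAT2 had 428 and 216 RPKM at 3 h and 648 and 746 RPKM at 6 h (1.19 ± 0.29, adjusted p = 0.00441). GLN1 had 1021 and 232 RPKM at 3 h and 1974 and 774 RPKM at 6 h, so that the times overlapped (1.34 ± 0.65, adjusted p = 0.0852). At 3 h the SD of the log2 difference between the deletion replicates was 0.69 over the members and 0.44 over all genes. In WT at 3 h it was 0.25 over the members. By more than 1 differed 8 members in the deletion and 0 in WT, and the share of all genes that did so was not counted. MET17, the sulfhydrylase that forms homocysteine, and SER3 were low in replicate 2 (14.0 against 50.7 RPKM, and 51.8 against 162 RPKM), while GLT1, glutamate synthase, was high (77.3 against 27.9 RPKM).

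Deletion mRNA gave 8 members higher and 39 lower at 6 h, against 14.8% and 71.9% of genes, and on both scales 8 and 21, against 14.8% and 30.7% of genes, all shared with WT. These rest on 1 library at 3 h. GLN1 mRNA was 336 RPKM in that library, 4445 RPKM in the library that went against its label, and 4716 and 3477 RPKM at 6 h. With that library entered, limma called 0 members and 0 of 5712 genes (0 members higher and 4 lower at an unadjusted p under 0.05). The footprint to mRNA ratio was higher at 6 h for 8 members and lower for 0 in the deletion, against 17.2% and 1.8% of genes. At an unadjusted p under 0.05 there were 22 and 1 members. limma-voom called 10 and 0 members, with 1181 of 5291 genes called either way. After rescaling limma called 0 members and 241 of 5291 genes (2 and 2 members at an unadjusted p under 0.05).

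No member differed between the deletion and WT past the threshold. For footprints limma called 0 of 52 members at 3 h, at 6 h, averaged over the times and in the difference of the time course, against 0.0377%, 0.0565%, 0.0377% and 0.0% of genes. At an unadjusted p under 0.05 there were 1, 1, 3 and 0 members, and limma-voom called 0. For mRNA it called 0 in each, against 0.0175%, 0.035%, 0.0175% and 0.0% of genes, with 1, 2, 4 and 1 members at an unadjusted p under 0.05 and 0 by limma-voom. For the ratio it called 0 in each, against 0.0189%, 0.0189%, 0.0378% and 0.0% of genes, with 0 members in each at an unadjusted p under 0.05 and 0 by limma-voom.

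The sizes that the data allow were set by the intervals. Averaged over the times, the footprint difference of the median member was 0.11, and 47 of 52 members had a 95% interval within 1 of 0 on the log2 scale, with a median width of 0.33 to either side. For mRNA the median was 0.07 and 52 intervals lay within 1 of 0, and for the ratio 0.01 and 46. A difference under these widths could not be told from 0, and larger ones could go uncalled because the threshold is adjusted over all genes. An interval that spans 0 does not show that the strains were alike.

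The members of smallest p, none of them called, were as follows. LYS4 had footprints of 19.5 and 9.46 RPKM at 3 h and 20.8 and 17.2 RPKM at 6 h in the deletion, beside the WT values above, a difference of 0.82 ± 0.31 at 3 h (95% interval 0.11 to 1.53) and 0.59 ± 0.22 averaged over the times (0.09 to 1.09). It was followed at 3 h by ILV2 at 0.32 and TRP3, of anthranilate synthase, at 0.27. At 6 h ARO4 footprints were 54.0 and 42.4 RPKM in the deletion, 0.49 ± 0.19 above WT, and HIS7, imidazole glycerol phosphate synthase, and HOM2, aspartate semialdehyde dehydrogenase, stood at 0.42 and 0.38. Averaged over the times HIS7 was at 0.37 and ARO4 at 0.32. The difference of the time course was −0.40 for ILV2, −0.25 for ASN2 and −0.58 for BAT2.

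In mRNA the smallest p at 3 h were those of HIS1 (0.49 ± 0.18, adjusted p = 0.932), ARG8, the acetylornithine aminotransferase (0.42), and ILV5, the reductoisomerase (0.45), each on 1 deletion library. At 6 h they were HOM3, aspartate kinase (0.59), ARO4 (0.67) and GDH3 (−0.33), and averaged over the times the same 3 genes, at 0.41, 0.50 and −0.33. The difference of the time course was −0.72 for HIS1, −0.47 for BAT1 and −0.45 for ILV5. For the ratio, ILV6 (0.43), TRP3 (0.33) and LYS4 (0.89) had the smallest p at 3 h, and PRO1 (0.39), HIS5 (0.22) and TRP2 (−0.36) at 6 h. Averaged over the times they were ILV6 (0.26), LYS1 (0.33), and GDH3 (0.40), and for the time course TRP3 (−0.40), HIS1 (0.69) and LYS4 (−0.90).

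Leaving out deletion replicate 4, which leaves a lone deletion library per time that is assumed to vary like the others, gave calls that rest on replicate 2. At 3 h footprints of GLN1 (1021 RPKM) were then higher by 2.01 and BAT2 by 0.94, and SER3 fell by 1.51. Averaged over the times GLN1 was at 1.63, LYS4 at 0.90, SER33 at −0.55 and SER3 at −0.76, and in mRNA at 6 h ARO4 was at 1.09 and LYS9 at 1.15. Without deletion replicate 2, no member was called by limma in any strain comparison.

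**Figure D5:**
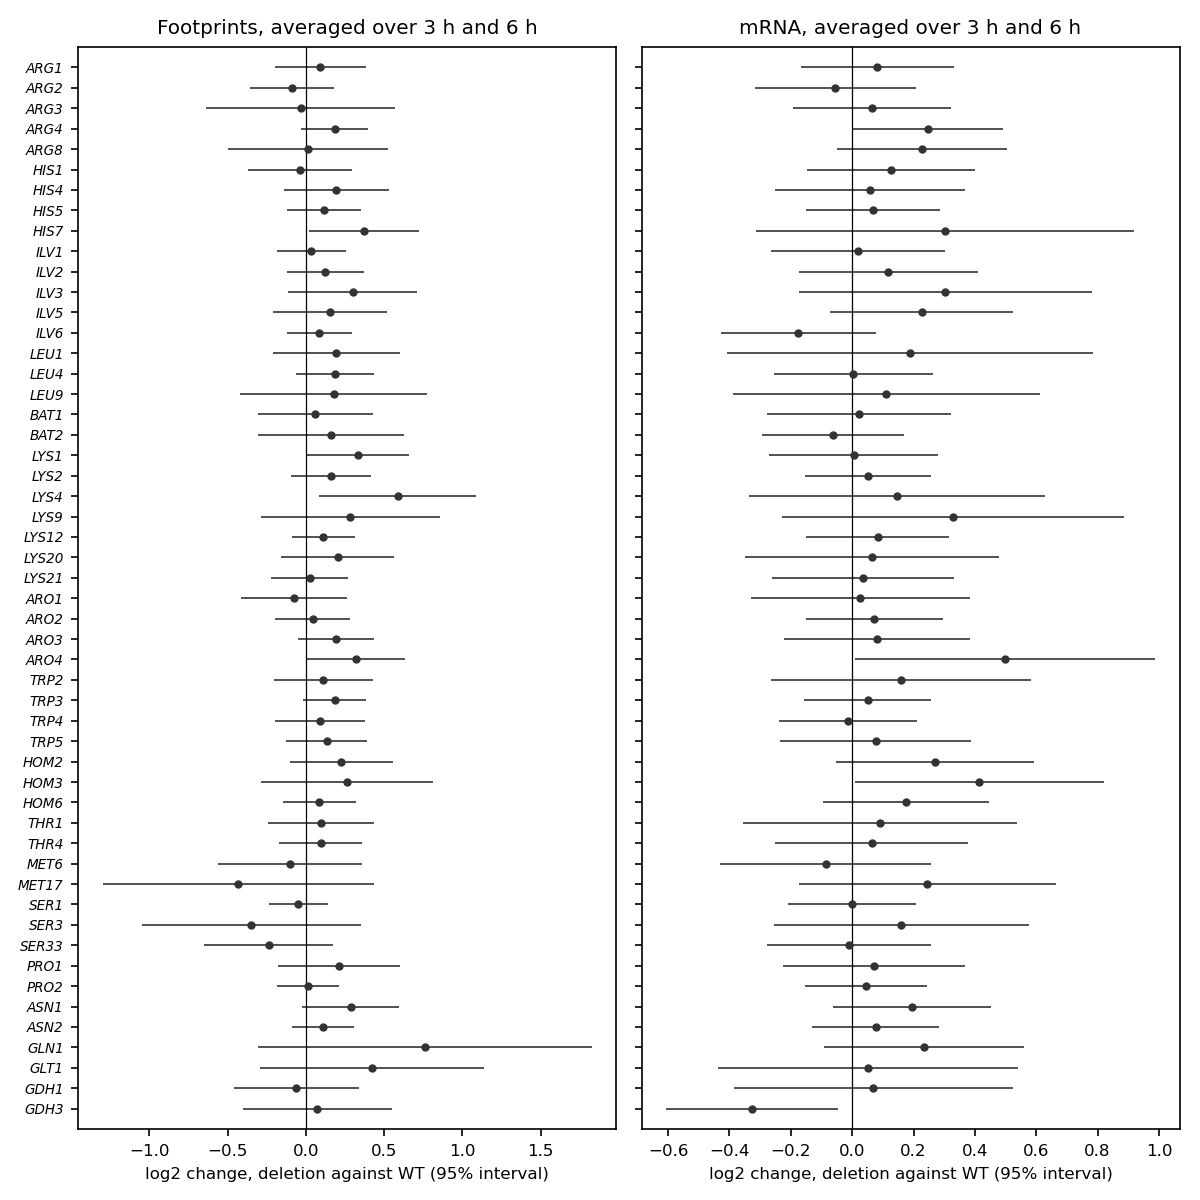
Points give the log2 change of each of 52 genes in the deletion against WT, averaged over 3 h and 6 h, for footprints (left) and mRNA (right), with 95% intervals from limma. Most intervals cross 0, no member was called in either panel, and 47 footprint and 52 mRNA intervals lie within 1 of 0.

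The rest of amino acid metabolism was read from 4 further lists, to be set against the 20.1% of all genes that were higher and 63.3% that were lower in RPKM, and the 36.1% and 32.1% after rescaling. Nothing particular to a list is read from its counts. Of 37 other biosynthesis genes listed, 34 were tested. Footprints of 4 of these rose and 23 fell between 3 h and 6 h in WT, and after rescaling 9 were higher and 13 lower. TYR1, prephenate dehydrogenase of tyrosine synthesis, rose by 1.84, MET2, the homoserine acetyltransferase, by 1.25 and GLY1, threonine aldolase, by 1.24. CPA1, a subunit of the carbamoyl phosphate synthetase of arginine synthesis, fell from 587 and 472 RPKM at 3 h to 53.8 and 51.2 RPKM at 6 h (−3.30 ± 0.47, adjusted p = 0.000265), followed by ORT1, the mitochondrial ornithine carrier (−2.58), and SER2, phosphoserine phosphatase (−2.50). Of 23 regulators 5 rose and 12 fell (11 and 3 after rescaling), with the sulfur activator MET4 at 2.18, the histidine and purine activator BAS1 at 1.91, MET32 at 1.01, the GATA repressor GZF3 at −2.10, the Gcn2 partner GCN1 at −1.84 and ARG80 at −1.69.

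Of 11 genes that break amino acids down, 8 fell in RPKM, where 63.3% of all genes did, and 3 were not called. After rescaling 3 were higher and 5 lower, against 36.1% and 32.1%. CAR2, ornithine aminotransferase, had 2739.8 and 3099.9 RPKM at 3 h and 573 and 528 RPKM at 6 h (−2.40 ± 0.16, adjusted p = 5.52e-06), followed by CAR1, arginase (−2.23), and UGA1, GABA aminotransferase (−1.70). Of 13 permeases, 4 rose and 8 fell, against 20.1% and 63.3% of all genes (5 and 6 after rescaling). LYP1, the lysine permease, rose from 6.27 and 10.4 RPKM at 3 h to 156 and 161 RPKM at 6 h (4.13 ± 0.25, adjusted p = 3.29e-06). GNP1, a glutamine permease, rose from 205 and 202 RPKM at 3 h to 1213 and 1169.8 RPKM at 6 h (2.54 ± 0.13, adjusted p = 1.24e-06), and MUP1, a methionine permease, by 2.04. The branched-chain permeases BAP2 and BAP3 fell by 2.32 and 2.20, and DIP5, which carries acidic amino acids, by 2.04.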

How the data were processed

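The deposited values are RPKM, which the authors scaled for length and depth, of 6679 genes in 1 table, with a column for each library, all 16 matched to samples by library name and 0 left over. Per the labels' protocols, size selection took 28 to 31 nt for footprints, and 50 nt for mRNA, before linker ligation. The tools listed, per the submitters' processing notes, are Bowtie2, bcl2fastq 2.17 and CASAVA, without their roles. How reads were counted, on which strand, build and annotation is not given in the sources used here. Reads may therefore be split between overlapping genes or near-identical copies (MET17 overlaps a neighbouring gene and SER3 a non-coding transcript in RefSeq R64).

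Of the 53 members, 51 were named by the table, and HIS3 and LYS1 were found by RefSeq R64 locus tag, which matched 5994 of 6679 IDs. The members and the other lists were chosen with earlier results of these data known. A gene was tested where its mean reached 5 RPKM in the libraries of each kind in the fit. The test was two-sided, by limma 3.58.1 in R 4.3.3 (eBayes, trend), on log2(RPKM + 1), a pseudocount of 1 RPKM. P-values were adjusted over all genes by Benjamini-Hochberg, and the threshold was 0.05. Fold changes on that scale understate the change of low genes, and folds in the text are ratios of mean RPKM. The footprint to mRNA change was tested in 1 model over 15 libraries. The mRNA library that went against its label entered no fit apart from an alternative.

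Rescaling divided each library by the median ratio of its genes to their geometric mean over libraries of its kind. The RPKM steps gave whole reads (tolerance 0.02 reads) for 6664 of the 6679 genes in footprints and 6612 in mRNA, and limma-voom on them was an alternative. Other alternatives were a pseudocount of 5, no filter, no trend, a replicate block and each replicate left out. Before use the fits were run on simulated data in which few genes changed, for the WT comparison of the times alone. That run does not cover the strain comparisons or a shift of the median gene. Genes described in full were, per pathway, those with the largest rise and fall of WT footprints, the isozyme pairs, the 5 largest called changes of the ratio, the extremes of level and, since no member was called between the strains, the 3 of smallest p. Other members named were chosen after their values were seen. Promoter motifs were not analysed here. Tables and plots were made with Python 3.11.15, pandas 2.3.3 and matplotlib 3.10.9.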

Additional observations from a re-analysis of the deposited data

Results flagged for a closer look

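ASN2, an asparagine synthetase, had all WT footprint libraries higher at 6 h than at 3 h and all deletion libraries lower. The change from 3 h to 6 h differed between deletion and WT by −0.25 on the log2 scale, which limma did not call.

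For 4 genes the mRNA of the deletion stood on opposite sides of both WT libraries at 3 h and at 6 h, where the 3 h side rests on 1 deletion library. The share of all genes that did so is not given here, and nothing is read from the count. The difference of the time course was −0.72 for HIS1, −0.47 for BAT1, 0.16 for LYS2 and 0.22 for TRP3, and limma called none of them.

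The mRNA library labelled deletion 3 h replicate 2, which entered the fits only as an alternative, had 41 of 42 members nearer the WT 6 h mean than the WT 3 h mean. On a line from 0 at the WT 3 h mean to 1 at the WT 6 h mean its median member stood at 0.788, and that of the other deletion 3 h library at −0.043.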

How the results depend on the processing

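A pseudocount of 5, no trend and limma-voom changed none of the gene calls recomputed (all members for WT footprints and mRNA, the largest ratio changes and the smallest p between strains). Members with a higher WT ratio numbered 18, 17 and 21 under them, against 19, and deletion footprints lower 33 under each, against 32. Rescaling gave 22 higher and 16 lower members for WT footprints, 18 and 16 for deletion footprints, 15 and 23 for WT mRNA, 14 and 21 for deletion mRNA, and 0 higher for the ratio in WT and in the deletion. It turned footprint changes to 0.47 for ARG2, 0.79 for ARG8, 0.21 for HIS4, 0.68 for ILV1, 0.65 for ILV5, 0.81 for ILV6, 0.51 for LEU4, 0.45 for ARO2, 0.32 for TRP3, 0.54 for TRP4 and 0.056 for GDH1. It turned mRNA changes to 0.070 for ARG3, 0.26 for ARG8, 0.27 for ILV1, 0.73 for ILV5, 0.13 for ILV6, 0.97 for LYS1, 0.64 for LYS4, 0.35 for ARO2, 0.18 for TRP4, 0.43 for SER3, 0.94 for ASN2 and 1.19 for GLT1. By its construction it moves each change by about the shift of the median gene.

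With the mRNA library that went against its label, 5 members were higher in WT mRNA, 0 higher and 0 lower in deletion mRNA, and 0 higher in the ratio of either strain, and the 3 h strain difference in mRNA was −0.23 for ARG8 and −0.022 for ILV5. Without a filter the mRNA calls of LYS1 (adjusted p = 0.0512) and LYS4 (0.0573) were lost.

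Leaving out 1 replicate gave 7 to 11 higher and 22 to 34 lower members for WT footprints, 7 to 10 and 30 to 32 for deletion footprints, 7 to 8 and 38 to 42 for WT mRNA, and 6 to 8 and 39 to 40 for deletion mRNA. For the ratio it gave 0 to 31 and 0 to 1 in WT, and 0 to 18 and 0 to 1 in the deletion. Strain comparisons gave 0 to 3 members for footprints at 3 h, 0 to 4 averaged over the times and 0 to 2 for mRNA at 6 h. Without WT replicate 3 and 4 in turn, the footprint change was 0.024 and −0.67 for ILV5 and −0.12 and 0.23 for LYS9, the mRNA change of GLT1 was −0.48 and 0.17, and the 6 h strain difference of the PRO1 ratio was −0.035 without replicate 3. Without deletion replicate 4 no deletion mRNA library is left at 3 h, so comparisons that need it gave no value. The number of calls over all genes also moved with the replicate left out, and the cause of these shifts was not tested.

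Replicate numbers were not taken to pair the libraries, since not every correlation was above 0.1: deviations of same-numbered libraries correlated at −0.04 for WT footprints, 0.24 for deletion footprints and 0.03 for WT mRNA. With the replicate block 9 members were higher and 31 lower in WT footprints, where 4450 of 5312 genes were called. In the WT ratio 25 were higher and 1 lower, where 2345 of 5291 genes were called. The footprint call of ARG2 was lost (adjusted p = 0.0649), while the fall of the GLN1 ratio was called (0.00345). Footprint and mRNA libraries of the same number correlated at −0.34 in WT at 3 h, −0.17 in WT at 6 h and 0.67 in the deletion at 6 h. With the WT numbers crossed, a choice made after seeing the data, the ratio counts were 40 and 1 in WT and 28 and 1 in the deletion. Over all 5291 genes, 3168 and 2331 were called there. No paired analysis was possible between the strains because they share only replicate number 4.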
